A study of Mus musculus with 12 samples.

Results

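Predicted mirtrons are microRNAs annotated at the ends of introns, and in mouse the names miR-6896 to miR-7094 were given to a large block of them. The members described here are the names of this block, of either arm, that were above 0 in at least 2 of 12 small RNA libraries from exosomes of primary mouse hepatocytes. Of 403 names in the block, 73 were members, out of 1965 names in the table. The members were chosen by their CPM values being above 0, so the presence of a member in 2 or more libraries is how it was chosen and not a finding. A further 72 names of the block were above 0 in 1 library and 258 were at 0 in all 12.

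The libraries came from 3 groups of 4: lean (control, with the diet label NCD in the column headers), 4 weeks of high-fat diet (HFD) and 16 weeks of HFD. All of the cells were at passage 0, in a Williams' E medium that contained serum from fetal calves, and neither strain, sex nor age is given in the sources used here. Nothing in the labels tells whether libraries of 1 group stem from different animals or cultures, so that p-values measure the spread between these libraries, which may be technical. The table gives CPM, computed by the authors, which are counts scaled to the total miRNA reads of the library. In each library the values were whole multiples of the CPM of 1 read, which gave the depth: 13748 to 30430 reads in the lean libraries, 2352 to 4477 at 4 weeks and 20538 to 37596 at 16 weeks. A single read was worth 223 to 425 CPM at 4 weeks, 32.9 to 72.7 CPM for lean libraries and 26.6 to 48.7 CPM at 16 weeks. All 4 libraries of the 4-week group were shallower than any other library, so depth and the 4 weeks of HFD cannot be told apart from the groups alone. All 5 hepatocyte markers were above 0 in some library, with a summed level of 3476 to 7427 CPM across lean libraries, 893 to 2565 CPM across 4-week and 7914 to 18513 CPM across 16-week libraries. Most of it was miR-802-3p, which averaged 4951 CPM (lean), 1425 CPM (4 weeks) and 11493 CPM (16 weeks), and miR-192-5p averaged 238, 571 and 1118 CPM. The others were near 0: miR-122-5p, the most abundant miRNA of liver tissue, had 3 reads in all, miR-802-5p 3 and miR-194-5p 1. Of 6 leukocyte miRNAs, miR-223-3p, miR-150-5p and both arms of miR-142a were at 0 in every library. The other two were abundant: miR-146a-5p averaged 4221 CPM (lean), 19647 CPM (4 weeks) and 33043 CPM (16 weeks), and miR-155-5p 2256, 4103 and 389 CPM. The summed leukocyte list was 2845 to 14499 CPM across lean libraries, 11392 to 31484 CPM across 4-week and 23100.0 to 43294 CPM across 16-week libraries. The part of either marker list in the members' differences was not tested. For 7 miRNAs outside the block, miR-155-5p among them, 44 of 46 values above 0 in lean and 16-week columns were whole reads only of the same-numbered library of the other group. No member was among them, and every member value was a whole number of reads within a tolerance of 1e-06, of its own column. The depth comes from the same columns, so this does not check which group a column belongs to: every direction between lean and 16 weeks given here rests on the column headers.

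A canonical miRNA is cut from its primary transcript by the nuclear enzyme Drosha and then by Dicer in the cytoplasm. A mirtron reaches Dicer without Drosha: the spliceosome cuts out a short intron, the lariat is opened, and the freed intron folds into a hairpin. In a 5′-tailed mirtron the hairpin sits at the 3′ end of a longer intron and the extra 5′ stretch is trimmed, so its 3p arm ends where the intron ends, at the AG of the splice acceptor. A mirtron is made from the transcript of its host gene.

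The mature sequences of the members on which the results turn are given 5′ to 3′, as annotated by RefSeq on GRCm38.p6, with the seed (bases 2 to 8, which pair with targets) in capitals. They are shown because the 5p sequences, first, are rich in G or A, while the 3p sequences are rich in U and C and end in cag or uag.
miR-6931-5p: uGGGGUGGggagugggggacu
miR-6948-5p: aGUUCAGAcaggacugugacac
miR-6921-3p: uGACUACUccuugccucucag
miR-6922-3p: uGUUCUGCucacccuucucacag
miR-6978-3p: aCGGCUUCacucucacccugcag
miR-6988-3p: uGACCUCUguaucuccugccag
miR-7043-3p: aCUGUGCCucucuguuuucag
miR-6964-3p: uUUCUUGUcuuccacucuag

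The hairpins of the 2 members with the most reads show the places of the arms, with the mature arm in capitals: miR-6931-5p lies on the side away from the intron end, miR-6921-3p on the side that ends it.
miR-6931 hairpin: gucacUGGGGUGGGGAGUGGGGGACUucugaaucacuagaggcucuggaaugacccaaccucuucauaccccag
miR-6921 hairpin: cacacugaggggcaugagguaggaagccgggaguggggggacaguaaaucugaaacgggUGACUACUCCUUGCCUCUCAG

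The positions of the members were read from the annotation. A place at an intron end belongs to how these names were given, so it describes the names and not these reads. Of the 73 members, 64 had a RefSeq mature sequence, and all 64 lay in an intron of a GENCODE M21 gene on their own strand, in 58 host genes. Of these members, 8 also overlapped an annotated exon, miR-6922-3p and miR-7068-3p among them. Of the 3p members with a sequence, 40 of 50 (80%) ended on the last base of the intron and 47 (94%) within 2 bases of it. Among the 3p names of the block that were not members the share ending on the last base was 95 of 127 (74.8%), and among all other 3p names of the table with a sequence it was 22 of 529 (4.16%). The 3p members ended in AG in 80% of cases, against 77.2% and 10.96%. The 3p members had a median of 71.4% pyrimidines and the 14 5p members with a sequence 33.3%, with a median of 39.1% G in the 5p members. The words short intron held for a minority: 17 of 64 lay in an intron of at most 100 bases and 47 in a longer one, with a range of 66 to 36269 bases and a median of 562.5. Of 60 members with a matched hairpin sequence, the hairpins of 3, miR-6974-3p, miR-7068-3p and miR-7088-3p, filled the intron from its first to its last base. Seeds were nearly all different, 63 among 64 sequences. The exception was CACCCUG, shared by miR-7023-3p and miR-7068-3p.

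**Figure D1:**
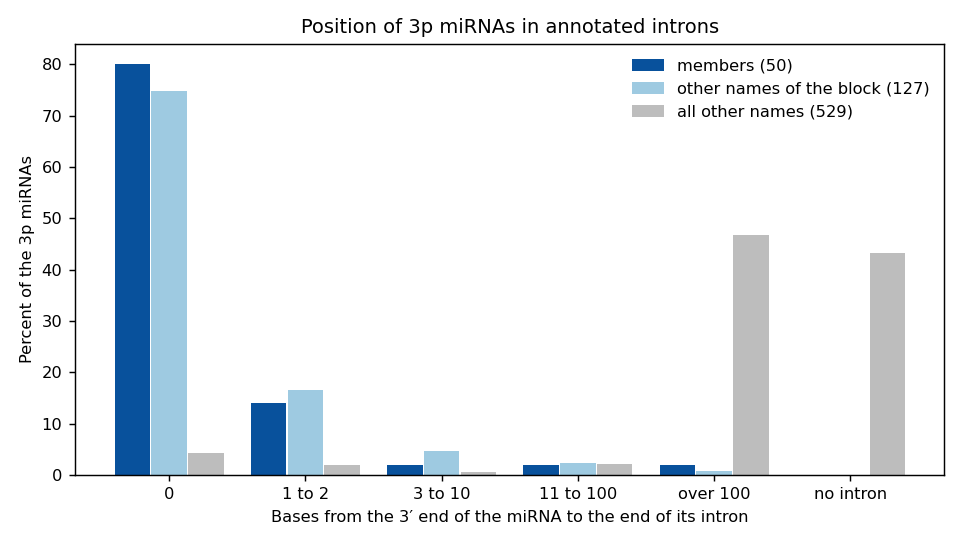
Distance in bases from the 3′ end of each 3p miRNA to the end of the annotated intron that holds it, as a percent of the 50 members, the 127 other 3p names of the block and the 529 other 3p names of the table with a RefSeq sequence. The bars of the block stand at a distance of 0 (80% of members), and those of the other names at over 100 bases or in no intron.

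The 3p arm made up most of the members, with 58 of 73, and 15 were 5p. In the block, 58 of 201 3p names (28.9%) and 15 of 202 5p names (7.43%) were above 0 in at least 2 libraries. In the rest of the table the arms were closer, at 151 of 627 (24.1%) for 3p and 124 of 616 (20.1%) for 5p. Of 67 hairpins, 6 had both arms among the members. The members were scarce: they held 1103 reads over the 12 libraries, of which 841 were 3p and 262 were 5p. A member had a median of 5 reads over all 12 libraries, 38 had at most 5 and 11 had at least 20. miR-6921-3p and miR-6931-5p together held 33.3% of the reads. Of 876 member values 62.1% were 0, and 156 of the 332 above 0 were a single read. miR-6931-5p alone was above 0 in all 12 libraries, and miR-6921-3p, miR-6978-3p and miR-7043-3p were above 0 in at least 10.

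The members together averaged 7540 ± 4122 CPM (SD, n = 4) for lean, 12941 ± 3703 for 4 weeks and 3133 ± 774 for 16 weeks, or 0.754%, 1.29% and 0.313% of the miRNA reads. The lean libraries, replicates 1 to 4, held 13020.1, 8347, 3886 and 4908 CPM, the 4-week libraries 12567, 18282, 10722 and 10195 CPM, and the 16-week libraries 2420.5, 2563, 3508 and 4041 CPM. Lean and 4 weeks changed order, at 20124 and 17268 CPM, when miR-101b-3p was left out of the totals, and 16 weeks stayed lowest at 7756 CPM. The lean group was uneven, with replicates 1 and 2 above the other two, and its lowest library lay within the 16-week range. The arms differed in the group with the highest mean sum. The 3p sum averaged 6881 ± 4048 CPM (lean), 4634 ± 316 CPM (4 weeks) and 2085 ± 394 CPM (16 weeks), and every lean library was above every 16-week library. Lean and 4 weeks overlapped: the 4-week libraries, at 4252 to 4914 CPM, lay within the lean range of 3552 to 12293 CPM and above lean replicates 3 and 4. The 5p sum was 659 ± 233, 8307 ± 3924 and 1048 ± 634 CPM, and every 4-week library was above all others. Most of the 5p sum was miR-6931-5p, and without it the 5p sums were 256, 1473 and 387 CPM. Between lean and 16 weeks depths overlapped, but lean replicates 1 and 4, at 13748 and 14671 reads, were shallower than every 16-week library. The mean was higher in lean for 44 of 58 3p members and lower for 12. A member with equal reads in both groups can count as higher in lean, as miR-7088-3p did with 2 and 2. For the 15 5p members it was higher in lean for 3 and lower for 12. The members share the same libraries, and the same counts for the other names are not given, so no trait particular to the members can be read from them. These are descriptions of sums and means that rest on few reads per member, with no test.

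**Figure D2:**
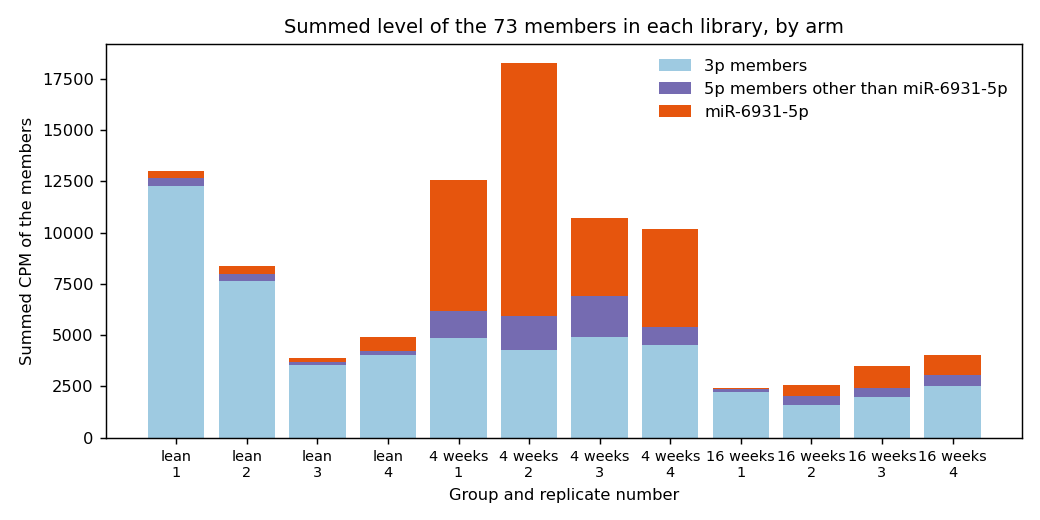
Summed CPM of the 73 members in each of the 12 libraries, stacked into 3p members, 5p members other than miR-6931-5p, and miR-6931-5p. The 3p part is tallest in lean replicates 1 and 2, and miR-6931-5p, at 3797 to 12329.9 CPM, makes up much of each 4-week bar.

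miR-6931-5p was the member with the highest mean level and the clearest change. It is the 5p arm of a hairpin in an intron of Dcakd, on chromosome 11, at chr11:102999896-102999916 on the minus strand of GRCm38, and 66.7% of its bases are G. Its level was 364, 361, 209 and 682 CPM in the lean libraries, 6412, 12329.9, 3797 and 4798 CPM at 4 weeks, and 53.2, 547, 1069.5 and 974 CPM at 16 weeks. The 4-week libraries, with 16 to 29 reads each, were all above every other library, and the lean and 16-week libraries overlapped. With limma on log2(CPM + 1) over all 12 libraries, its level at 4 weeks was higher than in lean by 4.05 on the log2 scale (SE 0.88, Benjamini-Hochberg adjusted p = 0.00519), and at 16 weeks it was lower than at 4 weeks by a log2 difference of -3.88 (SE 0.88, adjusted p = 0.0149). The count test of edgeR on the recovered reads, which takes the depth of each library into account, gave log2 differences of 3.65 (adjusted p = 0.000108) and -2.98 (adjusted p = 0.000335). Between 16 weeks and lean the edgeR difference was 0.68 with an adjusted p of 0.437. Both calls held under each of 30 alternative settings, with each library left out in turn among them.

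In the limma comparison of 4 weeks with lean, 40 members passed the filter of 10 CPM in 4 libraries among 267 miRNAs tested. miR-6931-5p was the only member called higher, where 9.36% of all miRNAs tested were. Called lower were 7 members, where 11.6% of all were. The median log2 difference was -2.81 over the 40 members and -1.27 over all 267. That median moved with the scaling, to -2.05 when miR-101b-3p was taken out of the total and to -0.12 with quantile normalization. The filter and the +1 both act with depth: a miRNA of the lean level has no read in a shallow library more often, and then counts as log2(1). The members lower at 4 weeks were therefore set against the number of reads that their lean level would give in the 14063 reads of the 4-week group.

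miR-6921-3p, from an intron of Srebf1, was the one member whose lower level was called by both tests. Srebf1 encodes SREBP-1, the transcription factor of fatty acid synthesis in liver. The miRNA lies at chr11:60200538-60200558 on the minus strand of GRCm38 and is the last 21 bases of an intron of 97 bases. Its level was 3346, 2169, 794 and 818 CPM in the lean libraries, 0, 0, 223 and 600 CPM (599.7) at 4 weeks, and 372, 273, 428 and 390 CPM (389.5) at 16 weeks. Every lean library was above every 4-week and every 16-week library, and the last 2 groups overlapped. At the lean level 25.1 reads would fall in the 4-week group, where 3 were seen. The log2 difference between 4 weeks and lean was -6.27 by limma (SE 1.82, adjusted p = 0.0252) and -3.57 by edgeR (adjusted p = 0.000631). The limma call was lost without lean replicate 1 or 2 or 4-week replicate 1 or 2 and in a fit of the 2 groups alone, with adjusted p values up to 0.0922, while the edgeR call held without each library.

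**Figure D3:**
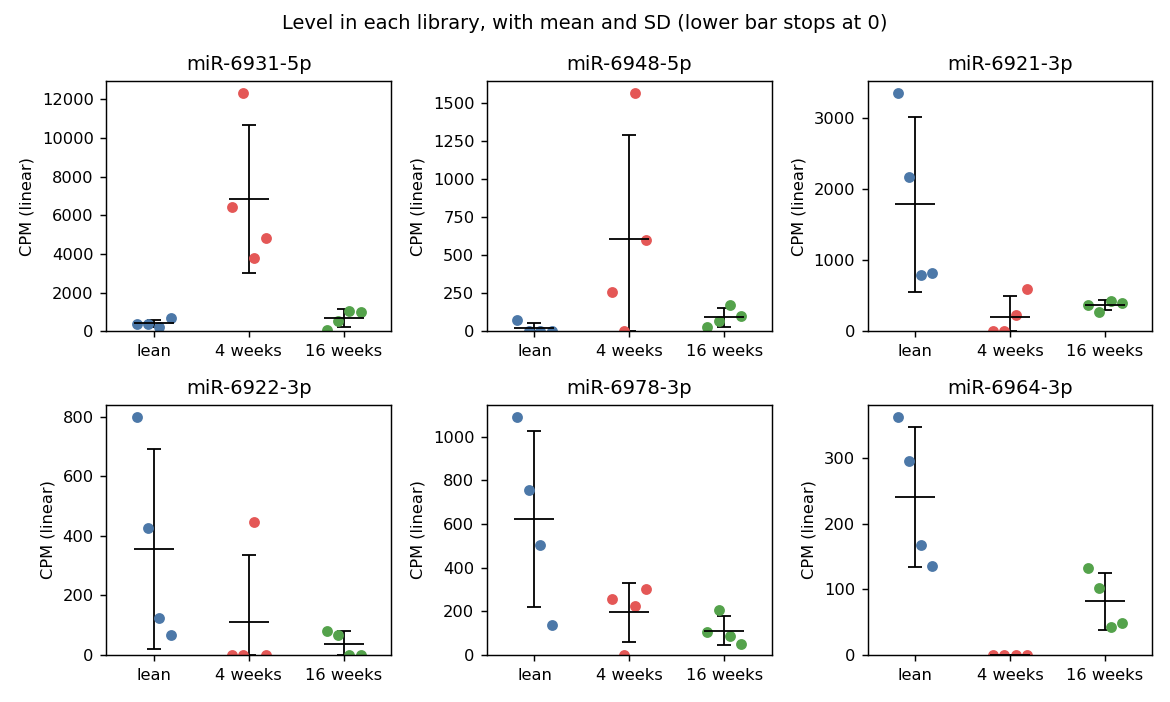
CPM on a linear scale in each of the 12 libraries for 6 members, with the group mean and SD (the lower bar stops at 0). miR-6931-5p and miR-6948-5p are highest in the 4-week libraries, with miR-6948-5p at 0 in 1 of them, and the 4 members of the 3p arm are highest in lean libraries.

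The other 6 members called lower at 4 weeks by limma rest on 0 or 1 read in the 4-week group. miR-6964-3p, from an intron of C2cd2, was at 364, 296, 167 and 136 CPM in lean, at 0 in all 4-week libraries and at 133, 103, 42.8 and 48.7 CPM at 16 weeks. Its lean mean of 241 CPM, from 20 reads, was 1.128 times the level of 3 reads over the 4-week group, 213 CPM. That level covers counting error only, so the ratio does not give a least size of the change. limma called it lower at 4 weeks than in lean (log2 difference -7.80, adjusted p = 0.000969) and higher at 16 weeks than at 4 weeks (6.21, adjusted p = 0.0063), but edgeR without a filter did not call the first (adjusted p = 0.111), nor the second (adjusted p = 0.416). miR-6971-3p, miR-6948-3p, miR-7032-3p and miR-7070-3p were at 0 in every 4-week library too, and their lean means, 135, 135, 191 and 91.2 CPM, were below that level: 1.28 to 2.68 reads would be seen in the 4-week group at the lean level. miR-7015-3p had 1 read there, where its lean level would give 3.62. A lower level at 4 weeks was not detectable at this depth for the 4 members at 0. Over all members, 35 were at 0 in the 4-week group, and 34 of them had a lean level below that of 3 reads there.

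**Figure D4:**
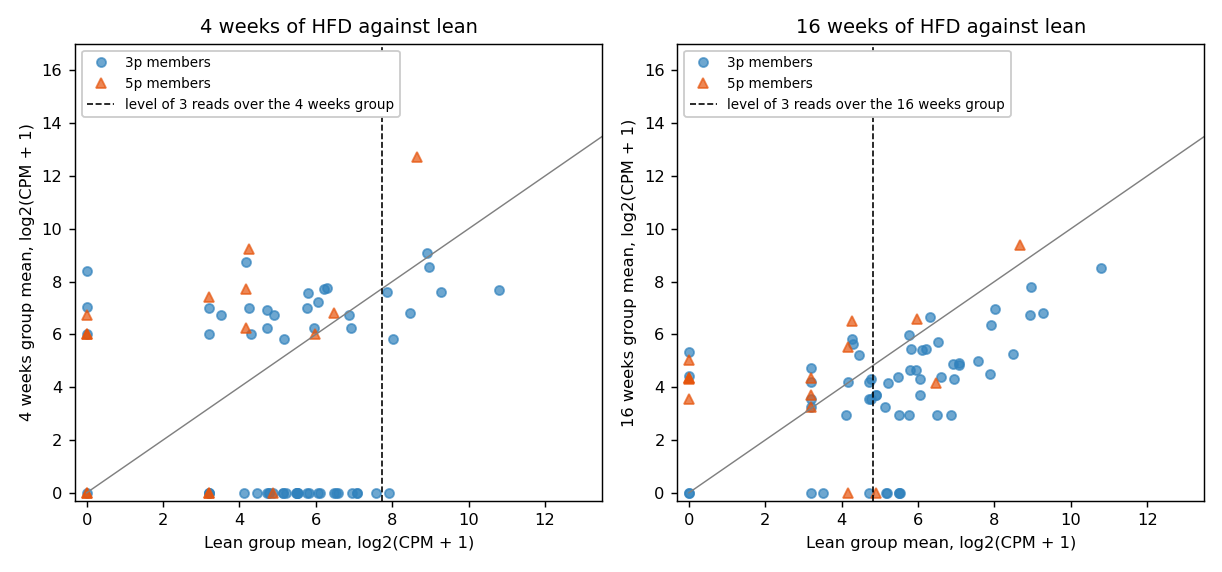
Group means of the 73 members on the log2(CPM + 1) scale, 4 weeks against lean (left) and 16 weeks against lean (right), by arm, with the line of equal levels and a dashed line at the lean level that 3 reads over the HFD group would give. On the left, 35 members lie at 0 at 4 weeks, and 34 of them are left of the dashed line at 213 CPM.

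Between 16 weeks and lean, where the ranges of depth overlapped, limma called 0 members higher and 0 lower. Of all 267 miRNAs 1.12% and 1.5% were called. At an unadjusted p below 0.05 there were 1 higher and 2 lower of the 40 members tested. The share of all 267 at that threshold is not given, so these counts are no result about the members. The median log2 difference was -1.17 over the 40 members tested and -0.18 over all 267. The filter and the +1 act on these medians too. Some members pass mostly through lean libraries, as miR-6948-3p did with reads in 4 lean and 2 16-week libraries. The gap between the medians is therefore not read as particular to the members. edgeR with its own filter tested only 2 members among 72 miRNAs, and called miR-6921-3p lower by a log2 difference of -2.23 (adjusted p = 0.00283), where 16.7% of all were called lower. By limma the difference of miR-6921-3p was -2.03 with an adjusted p of 0.609. The edgeR call held without each library.

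edgeR without a filter tested all 73 members among 611 miRNAs and called 3 lower at 16 weeks than in lean, all 3p, where 2.95% of all were called lower. It called 0 higher, where 2.45% of all were. With an unadjusted p below 0.05 there were 1 higher and 8 lower, and the share of all at that threshold is not given. The 3 called lower were miR-6921-3p, miR-6922-3p and miR-6978-3p. miR-6922-3p comes from another intron of Srebf1, at chr11:60202262-60202284, ends on its last base and also overlaps an annotated exon of Srebf1. It was at 800.1, 427, 125 and 68.2 CPM in lean, at 447 CPM in 1 of the 4-week libraries and 0 in the others, and at 79.8, 68.3, 0 and 0 CPM at 16 weeks. Its lean and 16-week libraries overlapped at the lowest lean value, and its log2 difference was -2.57 (adjusted p = 0.0409). miR-6978-3p, from an intron of C3, the central protein of the complement cascade, which hepatocytes secrete, was at 1091, 755.8, 501 and 136 CPM in lean, 256, 0, 223 and 300 CPM (299.8) at 4 weeks, and 106, 205, 85.6 and 48.7 CPM at 16 weeks. The groups overlapped at lean replicate 4, and the log2 difference was -2.14 (adjusted p = 0.0367). In alternatives added after the data were seen, leaving out 1 library of 12 ended the call of miR-6921-3p in 5 cases and of miR-6922-3p and miR-6978-3p in 6 each, with 0 to 4 members called. Lean replicates 1 and 2 and 16-week replicates 3 and 4 ended all 3 calls; 16-week replicate 2 ended those of miR-6921-3p and miR-6922-3p, 16-week replicate 1 those of miR-6922-3p and miR-6978-3p, and lean replicate 3 that of miR-6978-3p. DESeq2 called 2 members lower, where 13.2% of the 197 miRNAs it tested were, and 0 higher, where 2.54% were; it gave miR-6978-3p a log2 difference of -2.81 (SE 0.85, adjusted p = 0.0122) and did not call miR-6922-3p (adjusted p = 0.0681).

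In the edgeR comparison of 4 weeks with lean, the 2 members that pass its filter were both called, miR-6931-5p higher, where 25% of all 72 were, and miR-6921-3p lower, where 30.6% were. Without the filter miR-6921-3p was again the 1 member called lower, where 2.78% of all 611 were, and miR-6948-5p joined miR-6931-5p as called higher, where 3.44% of all were, with a log2 difference of 4.42 (adjusted p = 0.00508). It lies in an intron of Acin1 and was at 72.7 CPM in 1 lean library and 0 in the other 3, at 256, 0, 1564 and 600 CPM (599.7) at 4 weeks, and at 26.6, 68.3, 171 and 97.4 CPM at 16 weeks. It had 10 reads at 4 weeks. limma did not call it (adjusted p = 0.0947), and the edgeR call was lost without lean replicate 2 and without 4-week replicate 3. From the same hairpin, miR-6948-3p had 9 reads in lean, 0 at 4 weeks and 3 at 16 weeks. Thus the 5p arm had reads and the 3p arm none in the 4-week group, where the lean level of the 3p arm would give 1.90 reads.

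The other hairpins with both arms were as sparse. miR-7083, in an intron of Dock6, was the only one of them with both arms above 0 in every group, with 5, 1 and 10 reads of 5p and 2, 1 and 5 reads of 3p. miR-6984, in an intron of Mrpl21, had 10 reads of 3p and 1 of 5p in lean against 0 and 2 at 4 weeks. The 5p reads at 4 weeks were all in replicate 2, and at 16 weeks the reads were 2 and 0. miR-7041, in an intron of Lrig1, had 5 of 3p and 1 of 5p in lean, 0 and 2 at 4 weeks, and 1 and 1 at 16 weeks. The lean 3p levels of miR-6984 and miR-7041 would give 1.72 and 1.25 reads in the 4-week group. A lower 3p level was therefore not detectable there. miR-6959 and miR-6983 had at most 4 reads per arm in any group.

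Among the members with the highest means, miR-6988-3p and miR-7043-3p did not pass any of these tests. miR-6988-3p, from an intron of Syvn1, a ubiquitin ligase of the endoplasmic reticulum, was at 727, 559, 376 and 273 CPM in lean, at 0, 0, 1564 and 600 CPM (599.7) at 4 weeks, and at 53.2, 273, 0 and 97.4 CPM at 16 weeks. miR-7043-3p, from an intron of Rassf4, had group means of 495 ± 295, 371 ± 290 and 220.2 ± 68.8 CPM. miR-6974-3p, from an intron of Lta, had 1, 5 and 2 reads by group, all but 1 of its 4-week libraries above 0, and its mean of 427 CPM at 4 weeks is therefore made of 5 reads.

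Between 16 and 4 weeks limma called 1 member higher, miR-6964-3p, where 6.37% of all were called, and 1 lower, miR-6931-5p, where 4.12% were. Both forms of edgeR and DESeq2 called miR-6931-5p lower and 0 members higher. The shares of all miRNAs called lower and higher were 20.8% and 20.8% in edgeR with its filter, 1.8% and 2.62% without it, and 11.2% and 7.45% in DESeq2.

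The shallow libraries showed the fewest members. Those above 0 numbered 36.75 ± 9.84 per lean library, 14.25 ± 2.87 per 4-week library and 32 ± 4.97 per 16-week library. The number expected if each library held only the 2352 reads of the smallest, from the exact hypergeometric expectation, was 10.97 ± 4.34 (lean), 11.3 ± 1.11 (4 weeks) and 5.84 ± 1.11 (16 weeks). On this scale the 4-week libraries lay within the lean range of 6.97 to 16.8, and the 16-week libraries, at 4.98 to 7.36, lay below every 4-week library and overlapped the lean range at its lower end. Over all miRNAs the group means had the same order, at 104 (lean), 130 (4 weeks) and 95.4 (16 weeks), but the ranges lay otherwise. They were 92.2 to 113 expected per lean library, 118 to 149 per 4-week library and 88.0 to 107 per 16-week library. Every 4-week library was thus above every lean library, and most of the lean and 16-week ranges overlapped.

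**Figure D5:**
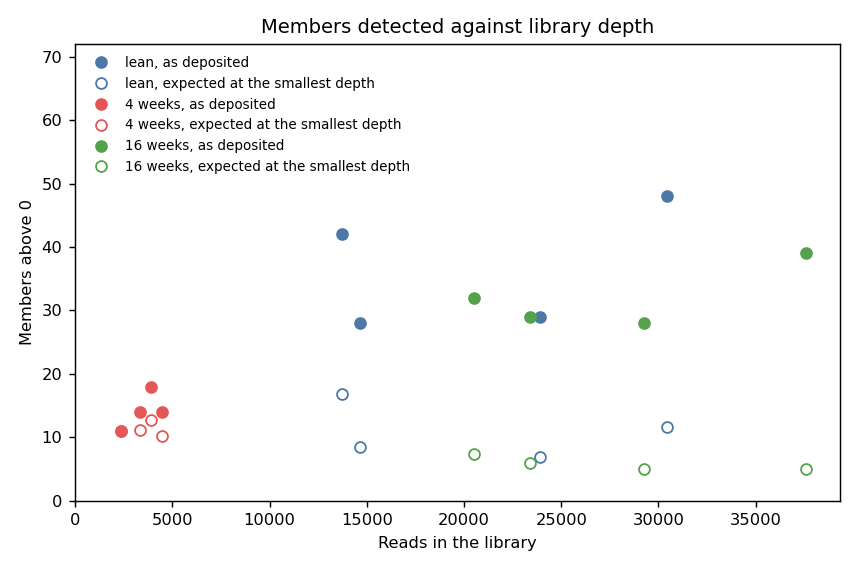
Number of members above 0 in each library against its depth in reads (filled) and the number expected at 2352 reads (open). The filled 4-week points, at 11 to 18 members, are the lowest, and the open points of the 16-week group, at 4.98 to 7.36, are below those of the 4-week group.

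Known mirtrons outside the block were as sparse. Of 6 arms of miR-877, miR-1224 and miR-702, 1 was above 0, miR-702-3p, in 8 libraries, with means of 169.5 ± 176 CPM (lean), 206 ± 283 CPM (4 weeks) and 58.4 ± 62.5 CPM (16 weeks). Of the Drosha-independent miRNAs that are not mirtrons, both arms of miR-320 were at 0 and miR-484 had 1 read in 1 library.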

How the data were processed

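Small RNA of hepatocyte exosomes was sequenced in 12 libraries. The tools named in the submitters' processing notes are cutadapt 1.13 and edgeR 3.16.5, and the build is mm10; the aligner and miRNA annotation are not given in the sources used here. The values deposited by the authors are CPM. Of 2664 values above 0, 98.2% were whole multiples of the CPM of 1 read (tolerance 1e-06), and these were taken as reads. The main test was limma 3.58.1 on log2(CPM + 1) with a variance trend, all 12 libraries in 1 fit, for miRNAs of at least 10 CPM in 4 libraries, and Benjamini-Hochberg adjusted p below 0.05 over all miRNAs tested. edgeR 4.0.16 (quasi-likelihood) and DESeq2 1.42.0 ran on the recovered reads. Tested on simulated data at these depths, limma gave lower levels at 4 weeks for unchanged miRNAs, while edgeR with its filter did not. Whether the simulated spread matches the spread between these libraries was not tested. The simulation therefore does not tell whether depth gave the lower limma calls at 4 weeks, nor which test is nearer the truth. The lower limma calls at 4 weeks are given with the reads expected at the lean level. edgeR without a filter and DESeq2 were not run on simulated data. edgeR tests with its own filter leave few members.

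The level that a count of 3 reads over a group gives was taken as the floor: 36.2 CPM in lean, 213 CPM at 4 weeks and 27.1 CPM at 16 weeks. Floors cover counting error only. Mature sequences came from RefSeq (GRCm38.p6), introns from GENCODE M21, whose build is that of mm10; a host is the gene of the shortest overlapping intron. Named members are those called by limma or edgeR, the 8 of highest mean, those above 0 in at least 10 libraries and hairpins with both arms. The members and lists were chosen with earlier results of these data known. The labels do not say whether a replicate number is shared between groups, so the main test did not pair the libraries.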

Additional observations from a re-analysis of the deposited data

Results flagged for a closer look

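Among 84 groups of 4 libraries looked at, 1 library lay apart from the other 3 by Dixon's criterion in 14. The rate of about 1 in 20 that chance gives does not apply to 13 of them, in which the other 3 libraries were at 0, so that any read meets the criterion. The exception was miR-6948-3p, at 363.7 CPM in lean replicate 1 against 41.8 to 68.2 CPM in the other 3. Of the 13, those in lean were miR-6948-5p at 72.7 CPM in replicate 1, miR-6959-5p and miR-7041-5p at 32.9 CPM in replicate 2, and miR-6974-3p and miR-6984-5p at 68.2 CPM in replicate 4, each 1 read. At 4 weeks, miR-6922-3p at 447 CPM in replicate 3 and miR-6984-5p at 850.3 CPM in replicate 2 had 2 reads. Also at 4 weeks, miR-6983-5p, miR-7083-3p and miR-7083-5p at 256 CPM in replicate 1 and miR-7015-3p at 223 CPM in replicate 3 had 1 read. At 16 weeks, miR-7041-3p at 26.6 CPM in replicate 1 and miR-7041-5p at 48.7 CPM in replicate 4 had 1 read.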

How the results depend on the processing

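At 4 weeks against lean, 1 member was called higher, and 3 were with a pseudocount of 100 or quantile normalization and 2 with edgeR without a filter or DESeq2; with a library left out the number was 1 to 2. The 7 lower were 1 with edgeR with its filter, without it, with a replicate block, or with DESeq2. With a library left out they were 5 to 8. DESeq2 called 14.3% of the 161 miRNAs it tested higher at 4 weeks and 16.1% lower. For settings with no share of all miRNAs given, the counts are not read as a result about the members. At 16 weeks against lean, 0 lower became 1 with edgeR, with edgeR and a replicate block or with only the 2 groups compared, 2 with DESeq2 and 3 with edgeR without a filter, and 0 to 1 with a library left out. At 16 against 4 weeks, 1 higher became 0 with edgeR in each form, DESeq2, a pseudocount of 100 or quantile normalization, 3 without the variance trend, and 2 with TMM or without miR-101b-3p, and 1 to 3 with a library left out. No named fold change reversed. The number of members, 73, was 145 with at least 1 library above 0, 40 with at least 4 and 37 with at least 2 reads in 2 libraries. Without miR-101b-3p in the total, the summed CPM came to 20124 (lean), 17268 (4 weeks) and 7756 (16 weeks), so that lean and 4 weeks changed order, and without miR-6931-5p it was 6107 at 4 weeks. At the smallest depth 10.97, 11.3 and 5.84 members were expected. The cause of these changes was not tested. The replicate block in limma left 1 higher and 7 lower at 4 weeks; same-numbered libraries did not deviate together, with correlations of -0.07 to 0.06.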
